A study of Homo sapiens with 22 samples.

Results

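Use of poly(A) sites was measured in human Kasumi-1 leukaemia cells with FIP1L1 knocked down by shRNA 1, against cells with a control shRNA. The 3'READS libraries of these 2 groups were chosen, which makes 7 of the 22 samples of the study, with 4 libraries for shRNA 1 and 3 for the control. All 1610931 nuclear poly(A) sites of the deposited table were taken, of 1618880 sites in all, and the rest lie on the mitochondrial chromosome. Kasumi-1 is an established acute myeloid leukaemia line that carries a RUNX1-RUNX1T1 fusion. Both groups were grown in RPMI with serum, received a lentivirus and were selected with puromycin. They differ, as far as the labels say, in the shRNA alone. A second FIP1L1 shRNA, called shRNA 2, had 3 libraries, which entered the fits and are given beside the results. The labels call the replicates biological, with no word on whether each was transduced apart. The p-values therefore cover only the spread among these libraries, which may be technical. No time after transduction is stated in the labels.

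Most mRNAs end where the cleavage and polyadenylation machinery cuts the nascent transcript and adds a poly(A) tail. FIP1L1 belongs to CPSF, the complex that recognises the poly(A) signal, where it binds U-rich RNA and contacts poly(A) polymerase. Many genes carry several poly(A) sites, and the choice between an upstream (proximal) and a downstream (distal) site sets the length of the 3' untranslated region, or of the coding part where a site lies in an intron. 3'READS sequences the ends of polyadenylated RNA, so the reads at a position count transcripts that end there. The deposited table gives the chromosome, strand and position of each site on hg19 and pairs none with a gene, so sites are named by position here, and gene, exon and intron are not given.

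The 7 libraries held 5666102 to 10266407 reads. After a filter on low counts, 28244 nuclear sites were tested, and sites under the filter held 6.51% ± 0.67 of nuclear reads with shRNA 1 (SD, n = 4) and 5.05% ± 0.39 in control (SD, n = 3). In the RNA-seq libraries of the same study, FIP1L1 mRNA had 14.1, 14.7, 15.1 and 17.6 CPM (read counts scaled to library size) with shRNA 1 and 42.2, 38.9, 44.1 and 40.2 CPM in control. Every shRNA 1 value was below every control value, with a log2 fold change of -1.43 (SE 0.10, edgeR adjusted p = 1.92e-11). Of 5 markers listed for the line, all were present. KIT and CD33, myeloid surface proteins, averaged 1165 and 63.2 CPM with shRNA 1 and 1449 and 72.2 CPM in control, and MPO, a granule enzyme, 7212 CPM with shRNA 1 and 16230 CPM in control. CD34, a progenitor surface protein, averaged 51.8 CPM with shRNA 1 and 260.8 CPM in control, and RUNX1T1, part of the fusion, 74.1 CPM with shRNA 1 and 185.5 CPM in control. Of the markers of other lineages, HBB had 0 reads, and CD3E and COL1A1 averaged under 1 CPM in both groups. EPCAM, an epithelial adhesion molecule, was present at 42.3 CPM with shRNA 1 and 133.9 CPM in control. In bulk RNA, fewer cells of a kind and less RNA per cell cannot be told apart.

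The 3'READS libraries did not all group tightly. Over the 5455 sites above 20 CPM on average, the Pearson correlation of log2 (CPM + 1) was 0.990 between shRNA 1 replicates 3 and 4, and 0.991 between control replicates 1 and 2. It was lower between shRNA 1 replicate 1 and replicates 3 and 4 (0.866 and 0.849), between shRNA 1 replicate 2 and replicates 3 and 4 (0.918 and 0.900), and between control replicate 3 and the other two controls (0.900 and 0.904). Control replicate 3 correlated with shRNA 1 replicate 1 at 0.848, where control replicate 1 did at 0.690. The deviation of control replicate 3 from the other two controls correlated at 0.86 with that of shRNA 1 replicate 1 from replicates 3 and 4, and at 0.566 for shRNA 1 replicate 2, across the same sites. These 3 libraries were therefore treated as standing apart, a choice made after seeing the data. Many results are given with them, without them and within them (2 shRNA 1 against 1 control). Without them, shRNA 1 replicates 3 and 4 stand against control replicates 1 and 2. Leaving out libraries chosen for their deviation lowers the spread by construction, so calls and small p-values gained that way are no added support. The labels name no batch, and what sets these libraries apart was not tested.

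**Figure D1:**
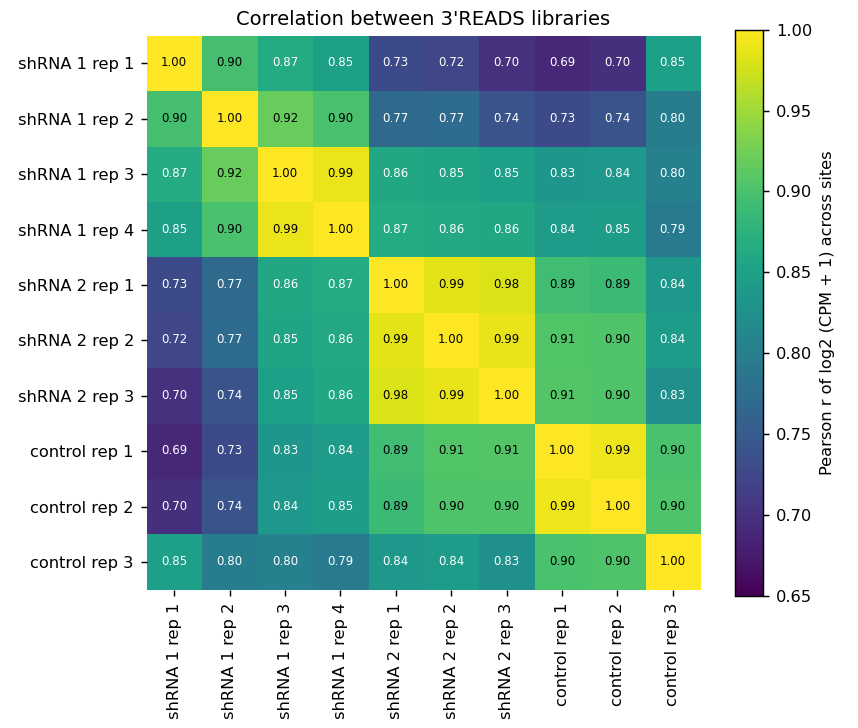
Pearson correlation of log2 (CPM + 1) between each pair of the 10 3'READS libraries, across the 5455 sites above 20 CPM on average. Replicates 3 and 4 of shRNA 1 and replicates 1 and 2 of the control are each tight pairs (0.99), and control replicate 3 is closer to shRNA 1 replicate 1 (0.85) than control replicates 1 and 2 are (0.69 and 0.70).

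Over all tested sites, calls in the 2 directions were near equal in number. That balance includes sites below 5 CPM, whose direction depends on the filter, and it differed by level. With shRNA 1, 2439 sites (8.64% of those tested) were higher and 2354 (8.33%) were lower than in control, 4793 or 17% in all (edgeR quasi-likelihood test, Benjamini-Hochberg adjusted p under 0.05 over all tested sites). Of these, 2240 higher and 1954 lower sites changed at least 2-fold. Sites called higher held 11.4% of the reads of tested sites with shRNA 1 and 3.31% in control. Sites called lower held 10.4% with shRNA 1 and 21.7% in control. The sites were called from these same libraries, so the direction of both differences is set by the choice and is no finding. The 4 shRNA 1 libraries and the 3 control libraries did not overlap at 2246 of the sites called higher and at 2189 of those called lower, and they did not overlap at 26.1% of all tested sites. Without the 3 libraries that stand apart the counts were 4626 higher and 4799 lower of 32638 sites (28.9% called). Leaving out 1 library alone moved them most for control replicate 1 (1263 higher, 1449 lower) and control replicate 2 (1288 higher, 1402 lower). With shRNA 2, in the same fit and against the same controls, 1102 sites were higher (3.9%) and 1245 lower (4.41%), 8.31% in all.

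Highly used sites were more often lower than higher with shRNA 1. Of the 1469 sites above 100 CPM on average, 6.88% were higher and 21.2% were lower, and of the 3986 sites between 20 and 100 CPM, 356 were higher and 657 lower. Of the 6776 sites between 5 and 20 CPM, 664 were higher and 715 lower. The median log2 fold change was -0.25 above 100 CPM and 0.02 over all tested sites. Sites below 5 CPM can pass the filter through the group where they are high, so their counts by direction are not read.

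By place, sites were sorted into runs, meaning tested sites on 1 strand with gaps of at most 2000 nucleotides (nt) between neighbours, of which those with at least 5% of the run's reads were kept. There were 18779 runs, of which 14243 had 1 kept site, 3083 had 2 and 1453 had 3 or more. Sites that were the only ones kept in a run with minor neighbours were higher in 62 and lower in 146 of 778 cases (7.97% and 18.8%). Isolated sites, with no tested neighbour in reach, were higher in 1317 and lower in 1057 of 13465 cases (9.78% and 7.85%). The first kept site of a longer run was higher in 328 and lower in 449 of 4536 cases (7.23% and 9.90%). The last site was higher in 368 and lower in 382 of 4536 cases (8.11% and 8.42%). The share of sites called differed by level, from 12% between 1 and 5 CPM to 28% above 100 CPM. These classes were not split by level and include sites below 5 CPM. Neither their shares of calls nor their directions are therefore compared with each other. Both strands had similar shares of calls (17.2% on the minus and 16.7% on the plus strand), and by chromosome the share of sites called ran from 13.2% on chromosome 15 to 21.6% on chromosome 11, leaving out Y, with 12 tested sites (33.3% called), and sequences outside the main chromosomes, with 48 tested sites (41.7% called, 19 higher and 1 lower).

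Sites were named by a rule that asked for called sites of at least 5 CPM with no overlap between the groups. They were ranked by fitted fold change, so lack of overlap, extreme ratios and near absence in 1 group are no finding. A gap between shRNA 1 and shRNA 2 is favoured too, since shRNA 1 values were picked as extremes. The sites with the largest rises were close to silent in control cells. The site at chromosome 5, minus strand, position 157403844, had 31.8, 38.7, 14.5 and 17.9 CPM with shRNA 1, against 0, 0 and 0.18 CPM in control. In the 3 controls a single read was counted, against 581 reads with shRNA 1. The ratio of the summed reads, scaled to library size, was 468 (95% interval 83.6 to 18500, counting error only), and the fitted test gave adjusted p = 2.76e-06. No other tested site lay within 838391 nt on that strand. With shRNA 2 this site had 0.17, 0.61 and 0.45 CPM, and shRNA 2 was below shRNA 1 (log2 difference -5.81, edgeR adjusted p = 9.06e-06).

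Another 4 of the 6 sites taken by rule as the largest rises were also close to silent in control cells. Their nearest tested sites on the same strand lay 1294, 127691, 28 and 2466 nt away, in the order given here. At 28 nt, on chromosome 22, the count depends on how sites were joined, which the sources used here do not state. At chromosome 12, minus strand, 120730903, shRNA 1 libraries had 22, 30.1, 18.2 and 19.4 CPM and controls 0, 0.12 and 0 CPM, a ratio of 427 (76.3 to 16900) from 530 reads against 1. At chromosome 9, minus strand, 89037907, shRNA 1 libraries had 50.1, 43.8, 27.3 and 30.6 CPM and controls 0, 0.12 and 0.18 CPM, a ratio of 354 (97.7 to 2930) from 879 reads against 2. At chromosome 22, minus strand, 39711252, shRNA 1 libraries had 15.8, 24, 15.5 and 20.2 CPM and controls 0, 0 and 0.18 CPM, a ratio of 366 (65.4 to 14500) from 455 reads against 1. In each of these, no control library held more than 0.18 CPM. At chromosome 14, plus strand, 96851085, the level was the highest of the 6, at 99.8, 133.0, 50.8 and 58.8 CPM with shRNA 1 and 0.34, 0.49 and 0.18 CPM in control, a ratio of 223 (108 to 556). All 4 were called against the control (edgeR adjusted p between 4.06e-07 and 2.27e-06). With shRNA 2 their means were 1.14, 1.53, 0.68 and 2.52 CPM in that order, also called above the control (adjusted p 0.0107, 0.0074, 0.0499 and 0.0167) and each below shRNA 1 (adjusted p between 6.44e-06 and 1.91e-05, edgeR).

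The sixth site, chromosome 19, plus strand, 41283392, had reads in every library of both shRNAs. It had 12.4, 17.1, 17.8 and 19.4 CPM with shRNA 1, 7.58, 5.38 and 4.64 CPM with shRNA 2, and 0, 0.12 and 0 CPM in control. The ratio of shRNA 1 to control was 335 (59.8 to 13300) from 416 reads against 1. Both shRNAs were called against the control (edgeR adjusted p = 7.27e-07 for shRNA 1 and 6.88e-05 for shRNA 2), and shRNA 2 was below shRNA 1 (log2 difference -1.52, adjusted p = 0.0047).

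Of the 6 sites with the largest falls, 3 lay on the minus strand of chromosome 18 within 17054 nt of each other. At 33032194, the most upstream of them, shRNA 1 libraries had 6.61, 8.06, 2.85 and 3.79 CPM, against 77.3, 85.6 and 89.7 CPM in control. The log2 fold change was -4.01 (SE 0.32, edgeR adjusted p = 1.31e-06). At 33023834 the values were 0.43, 0, 0.13 and 0.58 CPM with shRNA 1 and 11.4, 10.3 and 4.67 CPM in control. At 33015140, farthest downstream, they were 0, 0, 0.26 and 0.15 CPM with shRNA 1 and 5.79, 8.92 and 10.6 CPM in control, 3 reads against 166, with the control 68.7 times as high (95% interval 23.1 to 337). Both were called (edgeR adjusted p = 4.13e-05 and 1.53e-05 in that order). With shRNA 2 they averaged 44.4, 13.6 and 7.71 CPM in that order, none was called against the control (adjusted p 0.078, 0.385 and 0.894), and each was above shRNA 1 (adjusted p 1.81e-05, 1.34e-05 and 1.96e-05, edgeR).

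The remaining sites of that rule were low with shRNA 1 and not called with shRNA 2. At chromosome 11, plus strand, 43965425, shRNA 1 libraries had 0.21, 0, 1.29 and 1.31 CPM and controls 15.5, 11.8 and 12 CPM (log2 fold change -4.04, SE 0.51, edgeR adjusted p = 1.09e-04). At chromosome 20, minus strand, 23059998, shRNA 1 libraries had 0, 0, 0.52 and 1.02 CPM and controls 6.64, 5.5 and 10.2 CPM (-4.04, SE 0.63, edgeR adjusted p = 6.17e-04). At chromosome 17, plus strand, 38683253, shRNA 1 libraries had 0, 0, 1.81 and 0.58 CPM and controls 11.4, 15.0 and 4.49 CPM (-3.87, SE 0.66, edgeR adjusted p = 0.0012). The shRNA 1 libraries at 0 were among shRNA 1 replicates 1 and 2, which stand apart. All 12 sites were also called without the 3 libraries that stand apart, where the spread is lower by construction.

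**Figure D2:**
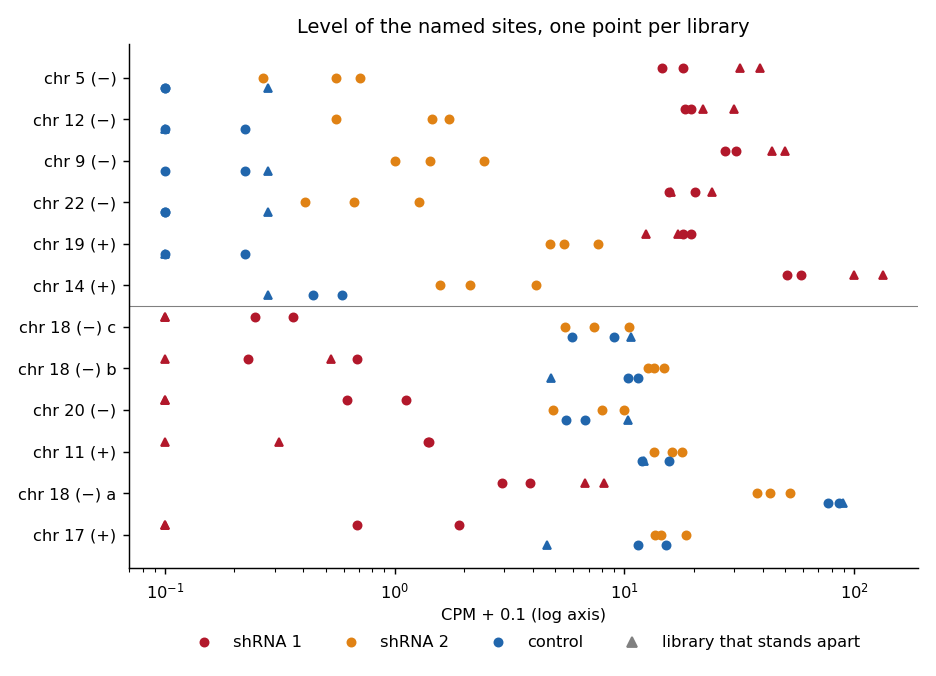
Level of the 12 sites taken by rule, as CPM + 0.1 on a log axis, with 1 point per library. The 6 with the largest rises stand above the line and the 6 with the largest falls below it, and the letters a to c order the 3 sites of chromosome 18 from upstream to downstream. By the rule, shRNA 1 and control libraries overlap at no site, and the shRNA 2 means lie nearer on this axis to the control than to shRNA 1 at all but the site of chromosome 19.

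To follow the choice between neighbouring sites, the 2 most used sites of each run with several sites were taken as a pair, which gave 4536 pairs. Sites were joined by distance alone, so the 2 sites of a pair may belong to different transcripts. Where they share 1 transcript, its amount cancels out of the ratio of distal to proximal reads. Where both sites of a pair were called, the calls mostly went 1 way. Both sites were higher in 159 pairs (3.51%) and both lower in 157 (3.46%), while 6 pairs (0.132%) had sites called in opposite directions. More pairs had a call at only 1 site. The proximal site alone was lower in 319 pairs (7.03%) and higher in 191 (4.21%). The distal site alone was lower in 254 pairs (5.6%) and higher in 212 (4.67%), and neither site was called in 3238 pairs (71.4%).

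By the test of the ratio itself, 24 pairs moved to the distal site with shRNA 1 and 24 to the proximal site, 0.529% of pairs each way and 1.06% in all (edgeR quasi-likelihood test of the site-by-group term, adjusted p under 0.05). At an unadjusted p under 0.05 the counts were 341 and 275. Without the 3 libraries that stand apart, 257 pairs moved to the distal site (5.67%) and 215 to the proximal site (4.74%), 10.4% in all. With a term for those libraries the counts were 122 (2.69%) and 91 (2.01%), 4.7% in all. Without control replicate 1 alone the counts were 8 and 6, without control replicate 2 they were 5 and 6, and without shRNA 1 replicate 3 they were 12 and 15. With shRNA 2 against the same controls, 12 pairs moved to the distal site (0.265%) and 21 to the proximal site (0.463%), 0.728% in all. For shRNA 2 against shRNA 1, 26 pairs were more distal (0.573%) and 28 more proximal (0.617%), 1.19% in all.

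Averaged over all pairs there was little net change, but the direction depended on how far apart the 2 sites were. Over the 3296 pairs with at least 20 reads in every library, the mean share of reads at the distal site was 51.1%, 52.0%, 51.8% and 51.7% with shRNA 1 and 51.2%, 51.4% and 50.2% in control. These values overlap (difference 0.70 percentage points, exact two-sided permutation test over libraries, p = 0.171). With the reads of all 4536 pairs summed and no minimum of reads, the difference had the other sign, at -1.20 points. That sum weighs each pair by its reads, so the pairs with most reads dominate it. By the mean of shares, pairs with at least 200 reads in every library were 0.96 points higher with shRNA 1. What separates these values was not tested. In the 961 pairs more than 1000 nt apart the distal share was 50.6%, 51.3%, 50.3% and 50.2% with shRNA 1 and 47.6%, 48.2% and 47.2% in control. All 4 shRNA 1 libraries were above all 3 controls, with means of 50.6% ± 0.5 (SD, n = 4) and 47.7% ± 0.5 (SD, n = 3), a difference of 2.95 points. The exact permutation p was 0.0571, the smallest that 4 against 3 libraries can give (35 assignments), or 0.0856 adjusted over 3 spacing classes, so no threshold of 0.05 could be passed. The difference was 2.33 points without the 3 libraries that stand apart and 3.82 points within them.

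Pairs of close sites moved the other way. In the 621 pairs at most 100 nt apart, the distal share was 50.2%, 50.8%, 50.8% and 50.3% with shRNA 1 and 53.2%, 52.9% and 52.4% in control. Again no shRNA 1 library reached the lowest control. The means were 50.5% ± 0.3 (SD, n = 4) and 52.8% ± 0.4 (SD, n = 3), a difference of -2.27 points (exact permutation p = 0.0571). It was -2.46 points without the 3 libraries that stand apart and -1.86 within them. This class was split off after seeing the data. In the wider class of 1349 pairs at most 300 nt apart, the shares were 51.4%, 52.4%, 52.3% and 52.0% with shRNA 1 and 53.3%, 53.1% and 52.5% in control (-0.92 points, exact permutation p = 0.0571, or 0.0856 adjusted over the 3 classes). The sources used here do not state the distance at which the table's sites were joined, and the closest tested sites on 1 strand were 25 nt apart, so pairs this close depend on that step.

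Between these distances the groups overlapped over all pairs of a class. In the 728 pairs over 100 and up to 300 nt apart the distal share averaged 53.3% ± 0.6 with shRNA 1 (SD, n = 4) and 53.1% ± 0.5 in control (SD, n = 3, exact permutation p = 0.400). In the 986 pairs over 300 and up to 1000 nt apart it averaged 52.1% ± 0.7 with shRNA 1 (SD, n = 4) and 51.4% ± 1.0 in control (SD, n = 3, exact permutation p = 0.343). In each of these classes control replicate 3 was the lowest control, and shRNA 1 replicate 1 the lowest of its group.

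**Figure D3:**
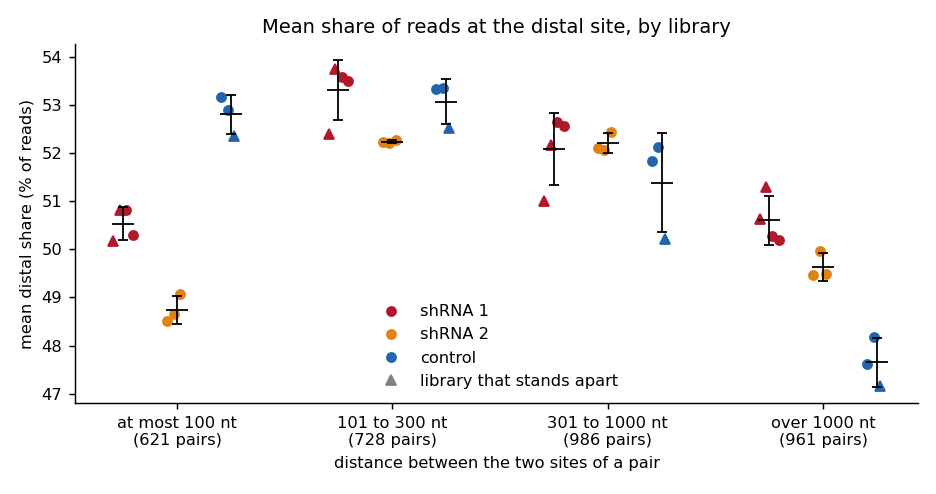
Mean share of reads at the distal site of a pair (percent, y axis, not starting at 0) for 4 classes of distance between its sites, with 1 point per library and black bars for the mean ± SD of a group. With shRNA 1 all libraries lie below all controls at most 100 nt apart (means 50.5% and 52.8%) and above all controls over 1000 nt apart (50.6% and 47.7%), and the groups overlap in the classes between.

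The same order appeared in finer steps. The median log2 ratio of distal to proximal reads, relative to the mean of the controls, lay between -0.25 and -0.16 in the 4 shRNA 1 libraries for the 232 pairs at most 50 nt apart, against -0.05 to 0.04 in the controls. For the 372 pairs over 1500 and up to 2000 nt apart it lay between 0.25 and 0.48 with shRNA 1, against -0.02 to 0.03 in the controls. The 134 pairs beyond 2000 nt, in runs of several sites, gave 0.27 to 0.40 with shRNA 1 and -0.11 to 0.06 in the controls.

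**Figure D4:**
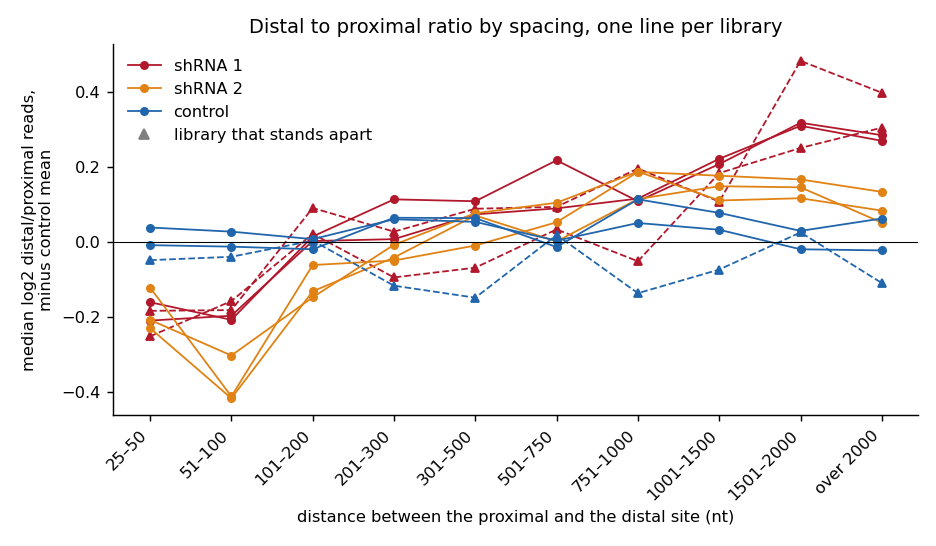
Median log2 ratio of distal to proximal reads minus the mean of the 3 controls (y axis), by distance between the 2 sites of a pair (x axis, nt), with 1 line per library and dashed lines with triangles for the 3 libraries that stand apart. All 4 shRNA 1 lines are below 0 up to 100 nt and above 0 beyond 1000 nt, where they lie above every control line.

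The direction at both ends was the same in deep and in shallow pairs, and the middle classes differed by depth. Among pairs more than 1000 nt apart, the distal share with shRNA 1 and in control was 49.9% and 47.4% in the 204 pairs with at least 200 reads in every library, and 50.8% and 47.7% in the 757 pairs with fewer. Among pairs at most 100 nt apart it was 48.8% and 50.4% in 149 deep pairs, and 51.1% and 53.6% in 472 others. In each of these 4 sets shRNA 1 and control libraries did not overlap. Between these distances the distal share was higher with shRNA 1 in deep pairs, without overlap. It was 51.3% with shRNA 1 and 50.55% in control for 157 deep pairs over 100 and up to 300 nt apart, and 55.3% with shRNA 1 and 53.9% in control for 200 deep pairs over 300 and up to 1000 nt apart (exact permutation p = 0.0571 each). In the 571 and 786 shallower pairs of these classes the groups overlapped, with differences of 0.10 and 0.53 points (exact permutation p = 0.914 and 0.457). Over all 710 deep pairs the distal share was 51.5% ± 0.4 with shRNA 1 (SD, n = 4) and 50.5% ± 0.2 in control (SD, n = 3), again with no overlap (exact permutation p = 0.0571). The difference over these pairs was 0.61 points without the 3 libraries that stand apart and 1.42 points within them. Over the 2586 shallower pairs the groups overlapped (difference 0.63 points, exact permutation p = 0.286).

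Single pairs followed the same order of distances. Of the 3296 pairs with at least 20 reads in every library, 472 (14.3%) had distal shares that did not overlap between shRNA 1 and control, 271 higher and 201 lower with shRNA 1. Over 1000 nt apart, 129 of 961 pairs were higher without overlap (13.4%) and 48 lower (4.99%). At most 100 nt apart, 15 of 621 were higher (2.42%) and 66 lower (10.6%). The ratio test covered pairs of any depth and called 0.529% of all pairs each way. Of 1300 pairs over 1000 nt apart, 14 moved to the distal (1.08%) and 9 to the proximal site (0.692%). Of 891 pairs at most 100 nt apart, 2 (0.224%) and 8 (0.898%) did. Between these distances the counts were 3 and 5 of 958 pairs up to 300 nt, and 5 and 2 of 1387 up to 1000 nt. Without the 3 libraries that stand apart, 5.67% of all pairs moved to the distal and 4.74% to the proximal site. Over 1000 nt apart 120 (9.23%) and 67 (5.15%) then did, and at most 100 nt apart 18 (2.02%) and 57 (6.4%).

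Libraries with shRNA 2 stood below the controls at short distances and above them at long ones. At most 100 nt apart their distal shares were 48.5%, 48.7% and 49.1%, lower than any shRNA 1 or control library. Over 1000 nt apart they were 49.5%, 49.96% and 49.5%, above all controls and below all shRNA 1 libraries. Both shRNAs were set against the same 3 controls, so these differences are not independent of each other.

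The more used site of a pair was taken from shRNA 2 libraries, whose shares do not enter the permutation test of shRNA 1 against control. Where the proximal site led there (1592 pairs), the distal share was 28.4%, 28.3%, 26.5% and 26.5% with shRNA 1, against 25.3%, 25.5% and 25.6% in control (difference 1.96 points, exact permutation p = 0.0571). Every shRNA 1 library was above every control, and replicates 1 and 2 were the higher of them. The difference was 1.14 points without the 3 libraries that stand apart and 2.69 points within them. Where the distal site led (1704 pairs), it averaged 74.3% ± 1.5 with shRNA 1 (SD, n = 4) and 74.7% ± 1.3 in control (SD, n = 3, exact permutation p = 0.686). This sort is not neutral, since shRNA 2 libraries also entered the choice of pairs. They correlated at 0.889 to 0.906 with control replicates 1 and 2, 0.826 to 0.842 with control replicate 3, and 0.700 to 0.866 with shRNA 1. Sorting by libraries nearer to most controls can by itself leave shRNA 1 shares less extreme, so no conclusion is drawn.

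In the 1453 runs of 3 or more sites, reads moved away from the first site. Its share of the run's reads was 29.6%, 28.7%, 29.7% and 29.8% with shRNA 1 and 31.2%, 30.7% and 31.5% in control, over the 1292 runs deep enough. The last site took 30.2%, 31.2%, 31.0% and 30.6% with shRNA 1 and 30.0%, 30.1% and 29.0% in control. In both places the groups did not overlap (differences of -1.67 and 1.06 points, exact permutation p = 0.0571 each). Middle sites had 26.6% ± 0.3 with shRNA 1 (SD, n = 4) and 26.2% ± 0.3 in control (SD, n = 3), with overlap (exact permutation p = 0.171). Site by site, 59 shares rose (0.527%) and 54 fell (0.482%) among the 11195 sites of runs with several sites, 1.01% in all. Of the first sites of these longer runs 7 rose and 7 fell, and of the last sites 12 rose and 10 fell. Over all positions, 17 shares rose and 17 fell without control replicate 1, 12 rose and 11 fell without control replicate 2, and 31 rose and 28 fell without shRNA 1 replicate 3. Without the 3 libraries that stand apart, 535 shares rose (4.78%) and 529 fell (4.73%), 9.5% in all. Among them, 52 first sites rose and 84 fell, and 89 last sites rose and 51 fell.

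Pairs were named by a rule that asked for no overlap between the groups and ranked by change in distal share. Lack of overlap and large shifts are therefore no finding, and gaps between shRNA 1 and shRNA 2 are favoured too. The largest single shift to the distal site was between a pair 97 nt apart on the minus strand of chromosome 9, at 137029697 (proximal) and 137029600 (distal). The distal site took 27.8%, 65.2%, 58.4% and 65.6% of the pair's reads with shRNA 1, against 3.20%, 3.74% and 3.24% in control. Replicate 1 of shRNA 1 was the lowest of its group (difference 50.9 points, log2 change of the ratio 5.06, SE 0.64, edgeR adjusted p = 0.0020). The distal site itself averaged 18.9 CPM with shRNA 1 and 1.03 CPM in control and was called higher, while the proximal site was not called. With shRNA 2 the distal share was 61.3%, 40.5% and 40.9%, also called against the control (adjusted p = 0.0090), and its difference from shRNA 1 was not called (log2 -0.42, adjusted p = 0.746, edgeR).

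At a pair 1709 nt apart on the plus strand of chromosome 12, 50156784 and 50158493, the distal share was 66.3%, 80.9%, 61.6% and 51.8% with shRNA 1, against 20.7%, 21.6% and 27.2% in control (log2 change 2.66, SE 0.47, edgeR adjusted p = 0.0119). Both sites changed here. The proximal site averaged 9.74 CPM with shRNA 1 and 22.8 CPM in control and was called lower, and the distal site averaged 17.5 CPM with shRNA 1 and 6.86 CPM in control and was called higher. The distal share with shRNA 2 was 19.1%, 18.6% and 14.4%, below shRNA 1 (edgeR adjusted p = 0.0044).

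At a pair 122 nt apart on the plus strand of chromosome 10, 23409899 and 23410021, it was 55.3%, 57.1%, 44.9% and 50.6% with shRNA 1 and 11.1%, 9.42% and 11.2% in control (log2 change 3.19, SE 0.44, edgeR adjusted p = 0.0034). At a pair 2103 nt apart on the plus strand of chromosome 22, 39773915 and 39776018, it was 74.1%, 63.3%, 32.2% and 30.6% with shRNA 1 and 8.90%, 9.29% and 15.7% in control (edgeR adjusted p = 0.0294). Replicates 1 and 2 of shRNA 1 were higher than replicates 3 and 4 at that pair, and control replicate 3 was the highest control. At both pairs the proximal site was called lower and the distal site higher, and shRNA 2 was below shRNA 1 (edgeR adjusted p = 0.0140 on chromosome 10 and 0.0364 on chromosome 22).

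A further 2 pairs complete the 6 taken by rule. On the minus strand of chromosome 17, 8077246 and 8076802, 444 nt apart, the distal share was 61.1%, 65.3%, 43.6% and 40.7% with shRNA 1 and 11.7%, 6.17% and 21.4% in control (edgeR adjusted p = 0.0234). On the minus strand of chromosome X, 71800481 and 71798674, 1807 nt apart, it was 73.2%, 81.0%, 72.1% and 64.9% with shRNA 1 and 33.5%, 29.6% and 43.3% in control (edgeR adjusted p = 0.0210). On chromosome X the proximal site was called lower, at 5.62 CPM with shRNA 1 and 20.6 CPM in control, and the distal site was not called.

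The largest shift to the proximal site was on the plus strand of chromosome 20, between 2637339 (proximal) and 2639038 (distal), 1699 nt apart. The distal share fell to 28.6%, 59.6%, 54.5% and 53.8% with shRNA 1, against 97.0%, 94.8% and 82.3% in control. The distal share fell by 42.2 points on average, and replicate 1 was the lowest (log2 change -3.85, SE 0.61, edgeR adjusted p = 0.0070). The proximal site averaged 125.9 CPM with shRNA 1 and 14.4 CPM in control and was called higher, while the distal site, at 135.0 and 199.3 CPM, was not called. The shRNA 2 libraries, at 85.4%, 89.0% and 88.9%, lay within the controls' range and above shRNA 1 (edgeR adjusted p = 0.0224).

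Close pairs made up most of the others. On the minus strand of chromosome 14, 65541916 and 65541845, 71 nt apart, the distal share was 39.8%, 22.5%, 63.2% and 65.9% with shRNA 1 and 88.4%, 90.6% and 83.3% in control (edgeR adjusted p = 0.0256). With shRNA 2 it was 45.7%, 46.1% and 53.7%, called against the control (edgeR adjusted p = 0.0406) and not called against shRNA 1 (adjusted p = 0.995). On the plus strand of chromosome 12, 56437949 and 56438008, 59 nt apart, it was 60.9%, 55.6%, 62.8% and 57.6% with shRNA 1 and 97.6%, 97.4% and 92.6% in control (edgeR adjusted p = 0.0030). At that pair shRNA 2 libraries had 98.0%, 98.5% and 95.8%, above shRNA 1 (edgeR adjusted p = 0.0026), so the pair moved with shRNA 1 and was not called with shRNA 2 (adjusted p = 0.927).

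On the plus strand of chromosome 17, 62223667 and 62223834, 167 nt apart, the distal share was 25.5%, 21.9%, 15.9% and 15.9% with shRNA 1 and 48.6%, 46.0% and 61.9% in control (edgeR adjusted p = 0.0070). This was among the deeper pairs, with at least 534 reads in every library. The proximal site was called higher (101.9 CPM with shRNA 1, 54.2 CPM in control) and the distal site lower (24.98 CPM with shRNA 1, 61.6 CPM in control). On the minus strand of chromosome 6, 170886451 and 170886219, 232 nt apart, the share was 18.7%, 8.96%, 11.2% and 16.5% with shRNA 1 and 42.6%, 42.8% and 47.3% in control (edgeR adjusted p = 0.0056). On the plus strand of chromosome 17, 22022782 and 22023796, 1014 nt apart, it was 66.2%, 52.5%, 70.3% and 56.3% with shRNA 1 and 96.6%, 94.8% and 100% in control (edgeR adjusted p = 0.0071), and both sites were called higher.

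**Figure D5:**
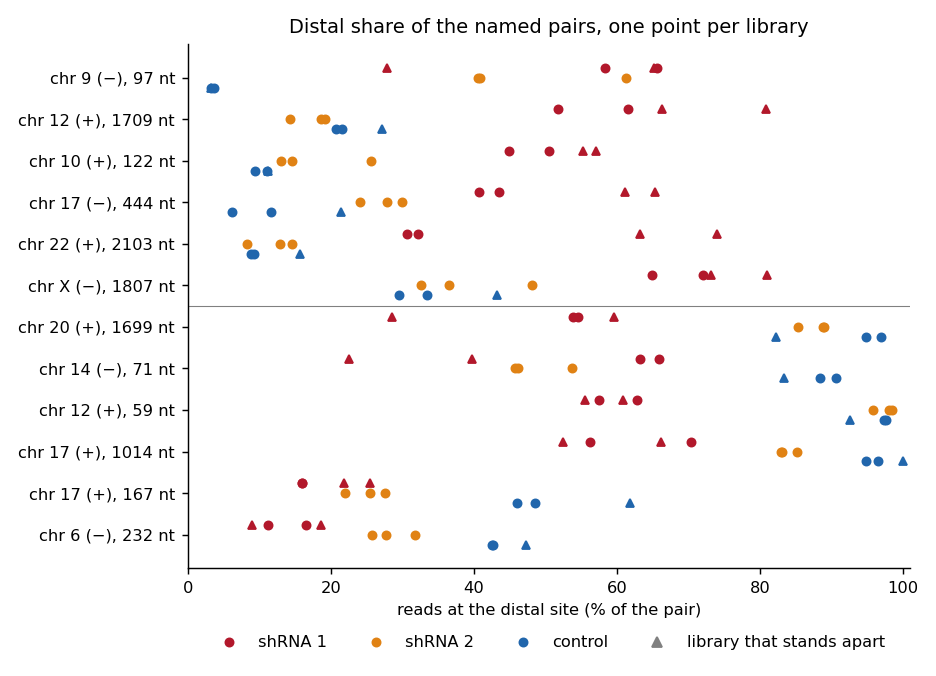
Share of a pair's reads at its distal site (percent, x axis) for the 12 pairs taken by rule, with 1 point per library, the chromosome, strand and distance between the sites at the left. The 6 pairs above the line have higher and the 6 below it lower shares with shRNA 1 than in control, with no overlap by the rule, and shRNA 2 libraries lie near shRNA 1 at the pairs of chromosome 9 (97 nt) and chromosome 14 (71 nt).

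Of the called pairs, 21 of the 24 that moved to the distal and 20 of the 24 that moved to the proximal site had at least 20 reads in every library and no overlap between the groups. Without the 3 libraries that stand apart all 12 named pairs were called, with adjusted p between 1.35e-15 and 4.96e-04 (edgeR). These values are no added support, since the spread is lower there by construction and the pairs were already picked as called. The calls were less firm when single controls were left out: 7 named pairs missed the threshold without control replicate 1 (adjusted p 0.05 to 0.198) and 6 without control replicate 2 (0.0748 to 0.206). The pair of chromosome 22 also missed it without shRNA 1 replicate 2 (adjusted p = 0.08) and the pair of chromosome X without shRNA 1 replicate 3 (0.0649). The pairs of chromosomes 6, 9 and 10, the pair of chromosome 12 with 59 nt and the pair of chromosome 17 with 167 nt were called each time 1 library was left out. In a fit of the 7 libraries alone, 8 of the 12 missed it (0.0512 to 0.118, all edgeR). A change of the more used site between the group means occurred in 318 of 3296 pairs. In 23 pairs every shRNA 1 library favoured 1 site and every control library the other, 15 of them with the distal and 8 with the proximal site leading with shRNA 1.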

How the data were processed

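Per the labels' protocols, RNA was extracted with Trizol and 3'READS and RNA-seq libraries were made from Kasumi-1 cells. The authors deposited raw read counts, whole numbers for each poly(A) site (3'READS) or Ensembl gene (RNA-seq). The submitters' processing notes name hg19 as the build and list DESeq2, STAR 2.7.3a and cutadapt 2.6 as tools, with no roles. The sources used here do not say how sites were joined, how internal priming was handled or whether positions count from 0 or 1. The last site of chromosome 1 is at 249233248. On the mitochondrial chromosome, 69.5% to 81.3% of reads lay on the plus strand. No column was left unassigned.

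Groups came from the sample titles. Counts were scaled with TMM, filtered with filterByExpr and tested in edgeR 4.0.16 (R 4.3.3) with the robust quasi-likelihood F test and 1 term per group over all 10 3'READS libraries, with Benjamini-Hochberg adjustment at 0.05. CPM use library sizes scaled by TMM. Ratios of 2 sites were tested on 2 columns per library with a term per library, a site term and a site-by-group term, which leaves 7 residual degrees of freedom. Distal means downstream on the strand. Shares per library used pairs with at least 20 reads in every library and exact permutation tests. Ratios of few reads have exact binomial 95% intervals. Intervals cover counting error only, since reads without molecular identifiers are not independent molecules. The tests were checked on simulated counts. limma 3.58.1 and DESeq2 1.42.0 were alternatives, and Python 3.11.15 with matplotlib 3.10.9 drew the figures.

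Named sites were called sites of at least 5 CPM with no overlap between the groups, the 6 largest rises and 6 largest falls by fitted log2 change. Named pairs were called pairs with at least 20 reads in every library and no overlap, the 6 largest changes in distal share each way. The comparison, the lists and the rules were chosen with earlier results of these data known. Of the listed marker genes, 1 is not reported here. Other alternatives were the gap that joins sites, the minimum share, the choice of the pair, the libraries in the fit, a replicate block and leaving out each library. Sites were not assigned to genes, as no hg19 annotation was used. The replicate numbers shared by the groups were not treated as pairs. Deviations of same-numbered shRNA 1 and control libraries from their group means correlated at -0.74, -0.13 and -0.78 across sites. For shRNA 2 and shRNA 1 the values were 0.093, 0.286 and 0.273, and for shRNA 2 and control -0.166, -0.036 and -0.291. The values for shRNA 1 and control depend on which numbers the libraries that stand apart carry, so they cannot exclude pairing.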

Additional observations from a re-analysis of the deposited data

Results flagged for a closer look

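Reads at nuclear sites below the filter on low counts were outside every test. They made up 7.42%, 6.603%, 6.01% and 6.02% of nuclear reads with shRNA 1 (mean 6.51%), 6.26%, 5.96% and 6.12% with shRNA 2, and 4.71%, 4.97% and 5.47% in control. Every knockdown library was above every control library (shRNA 1 against control, exact permutation p = 0.0571, the smallest possible).

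Dixon's test was run on 58 groups of 4 libraries, from named sites and pairs, distal shares, library shares and RNA-seq markers. In 3 of them a library lay far from the rest, where chance flags about 1 in 20. All 3 were RNA-seq marker genes with shRNA 1. RNA-seq groups were only part of the 58, so the rate among them was higher. CD34 had 43.7 CPM in replicate 2, against 53.6 to 55.2 CPM in the others. CD3E had 0.23 CPM in replicate 2 and COL1A1 0.38 CPM in replicate 3, with 0 in the other libraries of the group. Where all others are at 0, any read gives such a flag.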

How the results depend on the processing

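Numbers of calls and the balance of their directions depended on the fit. Without a filter on low counts, 810 sites were higher and 1042 lower. With the 7 libraries alone, 1606 sites were higher and 1335 lower, 6 pairs moved to the distal and 6 to the proximal site, and 21 site shares rose and 18 fell. With control replicate 3 and shRNA 1 replicates 1 and 2 left out together, 4626 sites were higher and 4799 lower, 257 pairs moved to the distal and 215 to the proximal site, and 535 site shares rose and 529 fell. The distal share of pairs over 1000 nt apart was then 2.01 points higher, over pairs chosen anew. A term for these 3 libraries gave 3653 sites higher and 3797 lower, 122 and 91 pairs, and 236 and 245 site shares. A gap of 500 nt gave 7 and 12 pairs, 22 and 21 site shares, a median log2 change of -0.04 and a distal share 0.56 points lower (-0.56), and it leaves out every pair of distant sites. A gap of 5000 nt gave 83 and 45 pairs, 160 and 146 site shares and a distal share 1.41 points higher. With the reads of all pairs summed, the distal share differed by -1.20 points. Without a minimum share, pairs at most 100 nt apart differed by -1.85 points. Apart from the filter, the gap and these constructions, the cause of each change was not tested.

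Leaving out 1 library at a time gave 1263 to 2640 sites higher and 1402 to 2673 lower, 5 to 32 pairs to the distal and 6 to 29 to the proximal site, and 12 to 78 site shares higher and 11 to 74 lower. The distal share over all pairs differed by 0.39 to 0.97 points, by -2.48 to -1.99 at most 100 nt, by -1.11 to -0.73 at most 300 nt and by 2.51 to 3.16 over 1000 nt apart. FIP1L1 mRNA changed by -1.5 to -1.39 (log2). DESeq2 (3241 sites higher, 3051 lower), other size factors (2430 and 2381) and limma on the ratio (25 and 27 pairs) stayed within 1.5 times the counts given above. All 12 named sites kept their call in each of these fits, and named pairs kept theirs in 69 of 84 fits without 1 library.

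With a replicate block, 1398 sites were higher and 1391 lower, 1 pair moved to the distal and 1 to the proximal site, and 7 site shares rose and 6 fell. No named pair was then called (adjusted p 0.0639 to 0.118, edgeR). Same-numbered shRNA 1 and control libraries deviated in opposite directions, but this depends on which libraries stand apart. Whether the numbers pair the libraries is therefore not known.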
